A study of Mus musculus with 8 samples.

Results

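The 4 libraries made from *iMLL-AF9* cells that received the vehicle DMSO were described on their own, out of 8 libraries in the series. They were chosen by the treatment named in their labels, with no use of the measured values. The cells carry a doxycycline-inducible *MLL-AF9* allele on a C57BL/6 background, were derived from stem and progenitor cells (the Lin-Sca-1+c-Kit+ fraction) transformed in the presence of doxycycline, and have WT as their genotype label. The labels name the tissue as bone marrow and the cells as leukemic stem cells (LSCs), while the series text calls them preleukemic. No dose, time or culture detail was given for these libraries, nor how many mice or transformed lines they came from, so the share of the spread between them that is technical is not known. Poly(A) RNA was sequenced in single-end reads. The question asked of the libraries was which genes, lineage programs, receptors, transcription factors and isozymes the vehicle-treated cells express, and which genes they do not.

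MLL-AF9 fuses the N-terminal part of the histone methyltransferase MLL (*Kmt2a*) to the elongation-complex subunit AF9 (*Mllt3*). The fusion holds posterior *Hoxa* genes and *Meis1* in an active state in myeloid progenitors, which then renew themselves. Such leukemias resemble granulocyte-macrophage progenitors more than hematopoietic stem cells, and primary granule proteins such as myeloperoxidase are among their usual products.

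Levels are given in CPM, a gene's reads scaled by all reads on genes of the library, which are used to follow 1 gene across libraries, or in TPM, which also divide by the length of the gene's exons and are used between genes. Means are followed by the SD over the 4 libraries (n = 4). A gene was taken as expressed when its mean reached 1 CPM. Between 12343770 and 14116054 reads per library fell on genes, so that 3 reads, the limit that a count of 0 allows, stood for 0.213 to 0.243 CPM in single libraries. Over the 4 libraries together the limit was 0.0570 CPM. These limits cover counting error only.

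The 4 libraries were not equally far apart. *Xist*, the non-coding RNA of the inactive X chromosome, was at 1.35, 1219.7, 1436 and 1623 CPM in libraries 1 to 4. The Y-linked *Eif2s3y*, a translation initiation factor subunit, was at 107, 0, 0 and 0 CPM. The Y-linked helicase *Ddx3y* was at 112, 0.153, 0 and 0 CPM, *Uty* at 35.9, 0, 0 and 0 CPM and *Kdm5d* at 51.5, 0.0767, 0 and 0 CPM. Library 1 thus held the Y-linked transcripts and almost no *Xist*, while libraries 2, 3 and 4 held *Xist* and at most 2 reads of any of these 4 Y-linked genes. The X-linked partners *Eif2s3x* (138, 251, 227 and 238 CPM) and *Ddx3x* (989, 1224, 1166 and 1239 CPM) were lowest in library 1. Libraries 3 and 4 were nearly alike. No gene among the 8836 with a mean of 10 CPM or more differed over 2-fold between them, against 113 genes between libraries 1 and 2 and 186 to 291 genes between the other 4 pairs. The squared differences between their counts were nevertheless 1.60 times those of counting noise, against 4.68 to 6.97 times for the other 5 pairs. These are medians over genes of a chi-square ratio, on a scale of variance. They were kept as 2 libraries because the labels list them as 2 samples. The labels do not say whether they came from separate sources, and an excess over counting noise cannot tell 2 cultures from 2 preparations of one. Means over the 4 libraries give that pair the weight of 2, and values per library are printed for many of the genes below.

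Of the 54838 genes in the files, 11988 reached a mean of 1 CPM, 11163 had at least 1 read but stayed under 1 CPM, and 31687 had no read in any of the 4 libraries. Protein-coding genes made up 11010 of the expressed genes, which was 50.1% of the 21998 protein-coding genes listed. Counts of expressed list members below have to be read beside this share. The lists were chosen with earlier results of these data known, so such counts are descriptions and not tests. The expressed remainder included 227 processed pseudogenes, 162 lincRNAs and 135 genes annotated as antisense. Reads on genes under 1 CPM were 0.193% of all reads on genes. Between 11736 and 12011 genes reached 1 CPM in a single library, and 11171 reached it in every library. Without library 1 the count of expressed genes was 11906, and with libraries 3 and 4 counted as 1 library it was 11980. The threshold did not fall in a gap, since 161 genes lay from 1 to 1.1 CPM and 158 from 0.9 to 1 CPM.

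**Figure D1:**
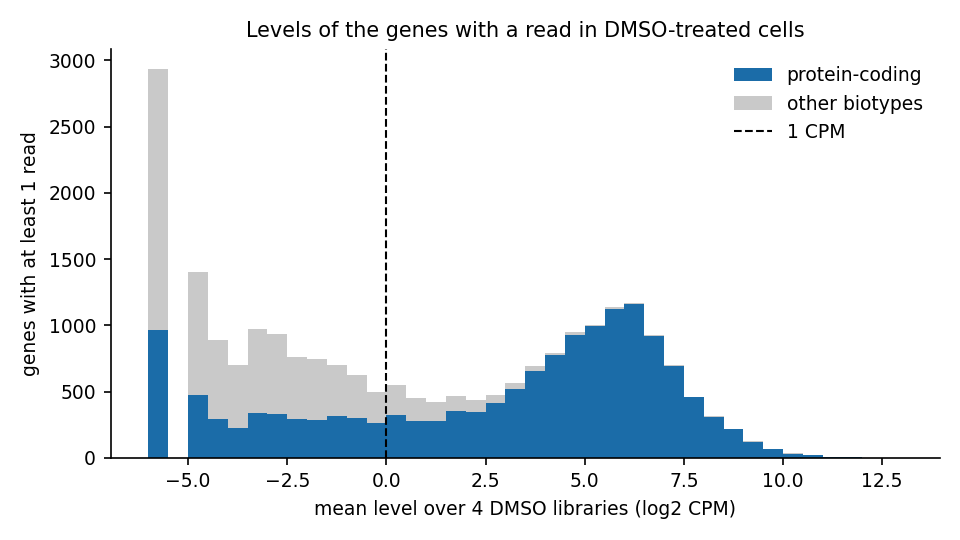
Number of genes (y axis) by mean level over the 4 DMSO libraries in log2 CPM (x axis, bins of 0.5), for the genes with at least 1 read, split into protein-coding genes and other biotypes. The dashed line marks 1 CPM, and the 11988 genes to its right are mostly protein-coding. Among these the tallest bins lie between 5 and 7 log2 CPM, while the leftmost bin of the figure, of genes with a single read, is taller.

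Reads were spread over many genes. The 74 genes at 1000 CPM or more took 12.4% of the reads, the 2515 genes from 100 to under 1000 CPM took 59.3%, and 1051 genes together held the first 50% of the reads. The 20 most abundant genes by CPM held 5.46% ± 0.18 of the reads. They were led by the translation elongation factor *Eef1a1* at 5137 ± 276 CPM, the mitochondrial cytochrome c oxidase gene *mt-Co1* at 4236 ± 288 CPM, the chaperone *Hsp90ab1* at 4002 ± 198 CPM and beta-actin (*Actb*) at 3532 ± 138 CPM. Next came *Eef2*, *Calr*, *Pabpc1*, *Ncl*, *Pkm*, *mt-Cytb*, *Eif4g2*, *Hnrnpa2b1*, *mt-Nd1*, *Mpo*, *Npm1*, *Rpl4*, *Scd2*, *Eno1*, *Ldha* and *Aldoa*. The set thus held translation and RNA-binding factors, 4 glycolytic enzymes, 3 mitochondrial transcripts, the desaturase *Scd2* and a single lineage-restricted gene, *Mpo*. Mitochondrially encoded genes took 1.32% ± 0.05 of the counted reads, and cytosolic ribosomal protein genes took 4.91% ± 0.04. Of the 13 mitochondrial protein-coding genes, 10 reached 1 CPM, while *mt-Atp8*, *mt-Nd3* and *mt-Nd4l* stayed under it. Reads mapped to several places were not counted, and how far that lowered the mitochondrial share was not tested.

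Per length the order changed. The ribosomal stalk protein *Rplp1* was highest among nuclear genes at 8285 ± 96.2 TPM, followed by *Eef1a1* at 7377 ± 440.3 TPM and cathepsin G (*Ctsg*), a neutrophil granule protease, at 5056 ± 1054 TPM. The next value, 4827 ± 2189 TPM for the microRNA gene *Gm23935*, rests on an annotated length of 57 bases, shorter than the reads, and is not comparable with the others. *Hsp90ab1*, *Actb*, the chromatin protein prothymosin alpha (*Ptma*) and ferritin light chain (*Ftl1*) came next, at 4774, 4719, 3979.6 and 3917 TPM. *Ifitm1*, an interferon-induced membrane protein, was also among the first 20 at 2822 ± 645 TPM, with ribosomal proteins filling most of the other places. The steadiest abundant genes included the ribosomal proteins *Rplp0* at 1782 ± 9.38 CPM and *Rpl18* at 548 ± 2.67 CPM and the RNA-binding protein *Khsrp* at 255 ± 1.05 CPM. Over the genes at 10 CPM or more, the median coefficient of variation was 7.36%, 5916 genes stayed under 10%, and 160 genes exceeded 50%.

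Among non-coding genes outside the mitochondrial genome, *Xist* had the highest mean CPM, although it was nearly missing from library 1. The nuclear RNA *Malat1* was next, at 604, 534, 683 and 736 CPM in libraries 1 to 4. The third by CPM was *Cct6a*, annotated as a processed transcript but named for a chaperonin subunit, at 572 ± 25.5 CPM. *Gm42418* and *Gm26917* were at 498 ± 185 CPM and 428 ± 182 CPM, both highest in library 2 (455, 762, 331 and 443 CPM for the former). The 4 genes other than *Xist* were at 286 CPM or more in every library.

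The 5 genes given as marks of these cells were all expressed. *Hoxa9*, the homeobox factor at the center of the MLL-AF9 program, was at 245, 289, 224 and 236 CPM in libraries 1 to 4. Its cofactor *Meis1* was at 118, 101, 96.2 and 97.8 CPM. These values lay within a narrow range in all 4 libraries. The stem cell factor receptor *Kit* was at 63.5, 43.4, 94.6 and 95.2 CPM, higher in libraries 3 and 4 than in libraries 1 and 2. *Mpo* was at 1344, 971, 3371 and 3035 CPM, again with libraries 3 and 4 on top. *Lyz2*, the myeloid lysozyme, was at 666, 744, 499 and 658 CPM, with library 3 lowest. The mean of *Mpo* over 4 libraries (2180.2 ± 1199 CPM) thus hides a split in which each of libraries 3 and 4 exceeded each of libraries 1 and 2 by over 2-fold.

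All 24 genes of a list of MLL-AF9 program genes reached 1 CPM. The list was chosen with earlier results of these data known, so this count is not a test of the program. The cell cycle kinase *Cdk6* had the highest mean TPM (181 ± 7.83 TPM), and its values of 724, 674, 702 and 733 CPM were close together. *Myc* was at 137, 81.3, 122 and 163 CPM and *Myb*, another progenitor transcription factor, at 356, 256, 327 and 377 CPM, with library 2 lowest for both. *Flt3*, a receptor tyrosine kinase of early progenitors, was barely past the threshold at 0.779, 0.4604, 2.19 and 2.13 CPM. The histone methyltransferase *Dot1l* and the MLL cofactor menin (*Men1*), which the fusion protein works with, were at 49.4 ± 2.31 TPM and 51.4 ± 5.32 TPM. The fusion allele itself was not measured, because the counted annotation has no gene for it. The mouse genes of the fusion partners were at 33.6 ± 2.26 TPM for *Kmt2a* and 2.27 ± 0.115 TPM for *Mllt3*. The share of reads that the fusion transcript may have added to either was not tested.

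*Hox* expression was concentrated in the A cluster on chromosome 6. Of its 11 genes, 10 reached 1 CPM, with *Hoxa9* and *Hoxa7* highest and *Hoxa13* at a single read in the 4 libraries. *Hoxa7* was at 120.1, 142, 122 and 124 CPM, *Hoxa10* at 60.2, 74.1, 30.9 and 33.1 CPM and *Hoxa5* at 32.9, 37.3, 22.1 and 21.1 CPM. *Hoxa11* was at 33.4, 49.7, 5.83 and 5.56 CPM, so that libraries 1 and 2 had over 5 times the level of libraries 3 and 4. In the B cluster 5 of 10 genes reached the threshold, led by *Hoxb4* at 8.86, 14.6, 14.8 and 12.6 CPM. Its neighbors *Hoxb3* (1.13, 6.52, 6.08 and 4.95 CPM) and *Hoxb2* (0.283, 3.45, 4.13 and 3.503 CPM) were low in library 1. *Hoxb5* (0.142, 1.23, 1.296 and 1.37 CPM) did the same, and it overlaps the antisense gene *Hoxb5os*. *Hoxb13* had the reverse split, with 2.55, 2.61, 0.162 and 0 CPM in libraries 1 to 4. None of the 9 *Hoxc* and 9 *Hoxd* genes reached 1 CPM, and 7 and 8 of them had no read in any library.

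**Figure D2:**
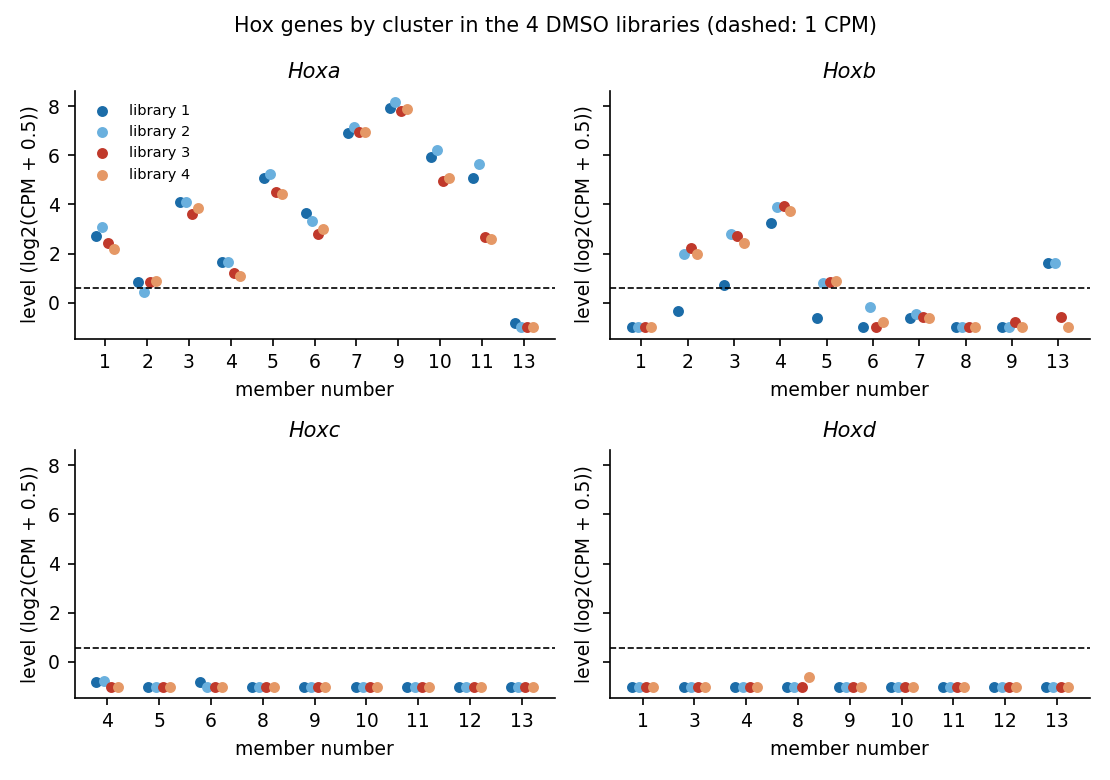
Level in log2(CPM + 0.5) (y axis) of each *Hox* gene by its number within clusters A to D (x axis), with 1 point per DMSO library and a dashed line at 1 CPM. *Hoxa9* and *Hoxa7* are highest, *Hoxa11* splits libraries 1 and 2 from 3 and 4, and all *Hoxc* and *Hoxd* points lie below the line.

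The label of LSCs was set against 23 genes of stem and progenitor cells, of which 17 reached 1 CPM. The Fc receptor *Fcgr3*, used to gate granulocyte-macrophage progenitors, had the highest mean at 219.5 ± 29.2 TPM, followed by *Cd93* (161 ± 25.7 TPM) and *Cd48* (136 ± 24.7 TPM). *Cd34* was at 26.1, 22.9, 133 and 151 CPM and *Gata2*, a factor of stem cells and the mast cell lineage, at 121, 36.7, 154 and 162 CPM. *Ly6a*, which encodes the stem cell antigen Sca-1, was at 21.5, 13.96, 14.5 and 18.7 CPM. *Cd34* was therefore over 4 times higher in each of libraries 3 and 4 than in libraries 1 and 2, and *Gata2* was lowest in library 2. The angiopoietin receptor *Tek* had no read. *Slamf1*, *Fgd5*, *Esam* and *Hlf*, which mark hematopoietic stem cells, stayed at 0.205, 0.03796, 0.117 and 0.562 CPM. Other genes used to describe stem cells were expressed, among them the factor *Mecom* at 112, 51.1, 78.3 and 86.6 CPM, the surface protein *Prom1* at 21.2, 34.3, 23.7 and 21.1 CPM and the ligand *Angpt1* at 58.3, 16.5, 33.1 and 35.3 CPM. The list was thus split, with library 1 highest and library 2 lowest for *Mecom* and *Angpt1*. All 15 proliferation genes were expressed, with *Top2a* at 1032, 939, 1112 and 1091 CPM and *Mki67* at 808, 849, 804 and 762 CPM.

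Primary granule genes were the most abundant lineage list. Of 14 genes, 13 reached 1 CPM, and the list median was 714 TPM. In such bulk libraries, fewer cells of a type and less RNA per cell cannot be told apart. The paralog *Lyz1* alone was under it, at 0.451 CPM. Cathepsin G, proteinase 3 (*Prtn3*), *Mpo* and neutrophil elastase (*Elane*), which are packed into azurophil granules at the promyelocyte stage, were at 5056, 2358, 2282 and 2032 TPM. *Ctsg* was at 1189, 1213, 1763 and 1670.4 CPM and *Prtn3* at 948, 1012, 1359 and 1245 CPM in libraries 1 to 4. Libraries 3 and 4 were higher than libraries 1 and 2 for *Ctsg*, *Prtn3* and *Mpo*, whereas *Elane* was at 604, 476, 658 and 495 CPM with no such split. The granule proteoglycan serglycin (*Srgn*) and the progenitor membrane protein *Ms4a3* were at 1369 ± 195 TPM and 997 ± 154 TPM.

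The promoters of these genes are shown because 4 of the 5 carry the abundant primary granule output and the other, *Mcpt8*, is the neighbor of *Ctsg*. Each line gives the 120 bases before the RefSeq transcription start in GRCm38.p6, in the direction of transcription. In GENCODE M21, *Elane*, *Prtn3*, *Mpo* and *Mcpt8* begin 65, 5191, 203 and 76 bases further upstream than this RefSeq start, and *Ctsg* begins at it. By that annotation the stretches of *Prtn3* and *Mpo* lie wholly within the gene, and those of *Elane* and *Mcpt8* in part. Capitals mark 3 words read on either strand: GAGGAAGT, which holds the GGAA core bound by ETS factors such as PU.1, AACGG, a core of MYB sites, and TATAA, the start of many TATA boxes. The words were chosen after the sequences had been seen.
Elane, chr10:79886192-79886311 (+): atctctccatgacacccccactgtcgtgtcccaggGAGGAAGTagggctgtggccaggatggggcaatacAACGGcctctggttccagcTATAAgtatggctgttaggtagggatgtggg
Prtn3, chr10:79879547-79879666 (+): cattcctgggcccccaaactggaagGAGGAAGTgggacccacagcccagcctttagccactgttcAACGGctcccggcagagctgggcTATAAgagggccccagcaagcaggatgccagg
Mpo, chr11:87793664-87793783 (+): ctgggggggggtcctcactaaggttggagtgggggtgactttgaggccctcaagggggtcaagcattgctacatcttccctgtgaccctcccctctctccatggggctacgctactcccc
Ctsg, chr14:56102575-56102694 (-): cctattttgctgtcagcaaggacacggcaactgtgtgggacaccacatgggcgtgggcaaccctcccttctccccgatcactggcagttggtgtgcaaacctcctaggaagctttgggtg
Mcpt8, chr14:56085198-56085317 (-): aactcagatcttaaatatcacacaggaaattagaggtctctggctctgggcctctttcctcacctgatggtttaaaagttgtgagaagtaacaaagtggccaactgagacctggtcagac
*Elane* and *Prtn3*, which lie next to each other on chromosome 10, held all 3 words in the same order and on the same strand. GAGGAAGT began 85 bases before the start in *Elane* and 95 in *Prtn3*, AACGG began 50 and 55 bases before it, and TATAA 31 and 32 bases before it. The other 3 stretches held none of the 3 full words. The shorter GGAA core, read on either strand, does occur in each of them. Among the 32851 windows of the RefSeq table, 1.33% held GAGGAAGT, 7.59% held AACGG and 11.9% held TATAA in the same 120 bases. The ETS factor PU.1 (*Spi1*) was at 232, 265, 212 and 219 CPM and *Myb* at 356, 256, 327 and 377 CPM in the same libraries. A match describes the letters only, and binding was not measured here.

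Neighbors of the granule genes differed in level. Next to *Elane* on chromosome 10, the complement factor D gene *Cfd*, also a granulocyte product, was at 0.269 CPM, and on the other side of *Prtn3* the membrane protein gene *Plppr3* and the splicing factor *Ptbp1* were at 186 and 833 CPM, with exons of *Plppr3* overlapping those of *Prtn3* on the opposite strand. In the granzyme and mast cell protease cluster on chromosome 14, *Ctsg*, *Mcpt8* and *Gzmb* were expressed. *Gzmb*, a cytotoxic protease, was at 44.3, 5.37, 48.4 and 45.8 CPM, about 8 to 9 times lower in library 2 than in any other. *Cma1*, *Cma2*, *Mcpt1*, *Mcpt2*, *Mcpt4* and *Mcpt9*, and *Gzmc*, *Gzmd*, *Gzme*, *Gzmf*, *Gzmg* and *Gzmn*, all stayed under 1 CPM. These neighborhoods were picked after the values had been seen.

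Genes of later neutrophil granules and the neutrophil surface were lower, with 19 of 20 expressed and a list median of 29.97 TPM. The calcium-binding proteins *S100a9* and *S100a8* led them at 1539 ± 992 TPM and 1462 ± 821 TPM, with *S100a9* at 267, 414, 129.6 and 90.6 CPM and *S100a8* at 331, 491, 181 and 134 CPM. Library 2 was highest and library 4 lowest for both. The collagenase *Mmp8* and the granule protein *Ngp* followed at 295 ± 112 TPM and 231 ± 142 TPM. The secondary granule gene *Ltf* (lactoferrin) and the tertiary granule gene *Mmp9* were at 5.27 ± 3.99 TPM and 5.22 ± 4.53 TPM. *Retnlg*, of mature neutrophils, had no read. In every library *Mpo* was far above *Ltf*, whose reads numbered 27 to 141.

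Of 24 monocyte and macrophage genes, 18 reached 1 CPM, with a list median of 4.87 TPM. *Ly6c2*, an antigen of classical monocytes, was highest at 416 ± 56.5 TPM, followed by the protease *Ctss* (237 ± 50.7 TPM), the pore-forming *Mpeg1* (165 ± 33.3 TPM) and the chemokine receptor *Ccr2* (127 ± 19.6 TPM). *Ly6c2* was at 311, 365, 339 and 261 CPM across the libraries, with no library apart from the rest. Genes of macrophages fell on both sides of the threshold. The lysosomal *Cd68*, the F4/80 antigen *Adgre1* and the mannose receptor *Mrc1* were expressed, at 43.3 ± 9.43 CPM, 43.02 ± 10.5 CPM and 9.39 ± 6.24 CPM. Among those under 1 CPM, *C1qa* and *C1qc*, complement subunits, were at 0.236 and 0.691 CPM, the scavenger receptor *Marco* at 0.0751 CPM and *Vcam1* at 0.07604 CPM, while *Siglec1* and *Ly86* were also under 1 CPM. Among dendritic cell and MHC class II genes only 4 of 17 were expressed: *Bst2* at 114 ± 2.56 TPM, the invariant chain *Cd74* at 44.5 ± 4.43 TPM, *Tcf4* at 16.3 ± 1.15 TPM and *Itgax* at 2.77 ± 1.61 TPM. The class II genes *H2-Ab1*, *H2-Aa* and *H2-Eb1* and their activator *Ciita* were at 0.828, 0.292, 0.0978 and 0.0786 CPM.

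Mast cell and basophil genes were present beside the neutrophil genes, and their level differed between libraries. Of 15 genes, 10 reached 1 CPM. *Mcpt8*, a basophil protease, was at 46.2, 46.9, 187 and 154 CPM in libraries 1 to 4, and *Prss34*, another basophil protease, at 5.31, 33.2, 101 and 88.9 CPM. Carboxypeptidase A3 (*Cpa3*) was at 21.3, 17.7, 94.9 and 74.02 CPM and the histamine-forming enzyme *Hdc* at 62.6, 27.1, 124 and 111 CPM. The interleukin-33 receptor *Il1rl1* was at 10.3, 8.67, 58.5 and 51.6 CPM. Libraries 3 and 4 exceeded libraries 1 and 2 for all 5 of these genes, and the summed level of the list was 188, 177, 680.3 and 583 CPM. Whether a separate group of cells carried these transcripts was not tested. The mature mast cell proteases *Mcpt4* and *Tpsab1* had no read in any library, and *Cma1* was at 0.487 CPM. Eosinophil granule genes were lower and had another order of libraries: major basic protein (*Prg2*) was at 9.63, 43.96, 33.1 and 21.9 CPM and eosinophil peroxidase (*Epx*) at 9.99, 36.8, 38.4 and 30.1 CPM, lowest in library 1. *Prg3*, *Alox15* and *Siglecf* were the other expressed members of that list. In all, 5 of its 10 genes reached 1 CPM (50%, near the 50.1% of all protein-coding genes). The eotaxin receptor *Ccr3* and the interleukin-5 receptor *Il5ra* were at 0.0382 and 0.205 CPM.

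Of 16 erythroid genes in the files, 9 reached 1 CPM (56.25%, near the 50.1% of all protein-coding genes). The beta-globin genes *Hbb-bt* and *Hbb-bs*, near-identical copies whose reads may be split, were at 14.2, 1.92, 3.97 and 6.24 CPM and 4.96, 1.07, 6.64 and 11.3 CPM. *Tal1*, a factor of the erythroid and stem cell programs, was at 22.9, 3.91, 39.6 and 36.7 CPM, about 6 to 10 times lower in library 2 than in the others. *Gata1* was at 8.29, 3.38, 10.9 and 11.2 CPM. The heme synthesis gene *Alas2* and the red cell anion exchanger *Slc4a1* were at 0.01904 and 0.08101 CPM. Of 14 megakaryocyte and platelet genes, 8 were expressed (57.1%, again near that share), led by *F2rl2* (32.7 ± 17.97 TPM) and the integrin *Itga2b* (27.997 ± 13.3 TPM). The platelet glycoprotein gene *Gp1bb* had no read.

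Lymphoid genes were almost all under the threshold. Of 15 B-lymphoid genes only *Ighm*, the immunoglobulin mu heavy chain, and *Cd79b*, a subunit of the B-cell receptor, passed it. *Ighm* was at 54.6, 58.7, 41.6 and 37.6 CPM and *Cd79b* at 4.11, 8.29, 2.997 and 2.82 CPM, present in every library. *Ms4a1*, *Rag1*, *Rag2* and *Dntt* had no read and *Cd79a* was at 0.0941 CPM, and none of the 113 heavy-chain variable segments reached 1 CPM. Of 22 T-lymphoid and NK genes, *Lck* (6.99 ± 2.54 TPM), *Tcf7* (2.86 ± 2.29 TPM) and *Il7r* (1.25 ± 0.451 TPM) were expressed and the other 19 were not, with 9 at no read, among them *Cd3g*, *Cd4*, *Cd8a*, *Gzma* and *Prf1*. Of 18 stromal and endothelial genes, 14 were under 1 CPM, including *Cxcl12* at 0.0192 CPM and *Lum*, *Dcn*, *Col1a2* and *Col3a1* at no read. The 4 expressed were *Runx2* (45.6 ± 5.58 TPM), fibronectin (*Fn1*, 32.1 ± 19.3 TPM), *Acta2* (6.31 ± 3.16 TPM) and *Pdgfrb* (1.08 ± 1.05 TPM). *Fn1* was at 169.7, 147, 41.9 and 60.2 CPM, with libraries 1 and 2 highest. Of 16 genes of unrelated tissues, the epithelial adhesion genes *Cdh1* (19.5, 14.1, 43.9 and 40.5 CPM) and *Epcam* (5.31, 0.844, 2.59 and 2.74 CPM) were the expressed pair.

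**Figure D3:**
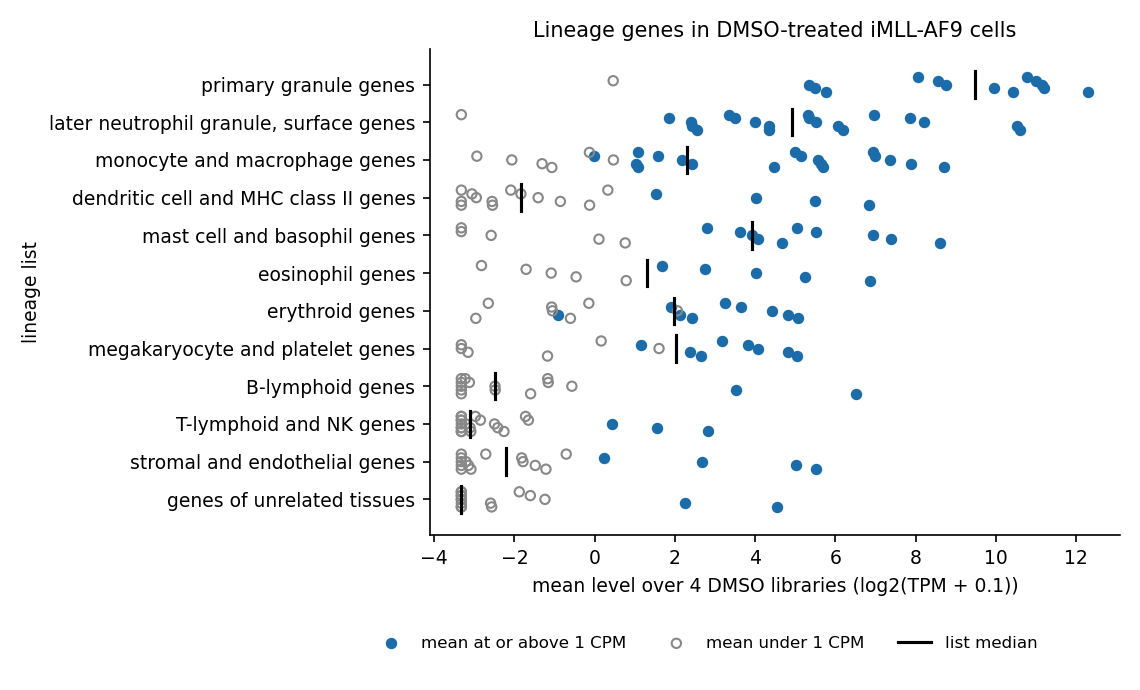
Mean level over the 4 DMSO libraries in log2(TPM + 0.1) (x axis) of each gene of the 12 lineage lists (y axis), filled when the mean reached 1 CPM and open when it did not, with a bar at each list's median. Primary granule genes have the highest median, at 714 TPM, and most B-lymphoid, T-lymphoid and unrelated-tissue genes are open points at the left.

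Of 235 receptor and ligand genes listed, 156 reached 1 CPM. Among cytokine receptors 26 of 33 did so, led by *Csf2rb*, the common beta chain of the interleukin-3, interleukin-5 and GM-CSF receptors, at 249 ± 34.1 TPM. Its mouse paralog *Csf2rb2*, with which reads may be shared, was at 145 ± 45.6 TPM, and the ligand-binding chains for GM-CSF (*Csf2ra*) and interleukin-3 (*Il3ra*) were at 121 ± 45.2 TPM and 21.7 ± 5.83 TPM. *Csf2ra* was at 122, 134, 64.1 and 66.6 CPM and *Csf2rb2* at 161, 123, 243 and 242 CPM, so the 2 genes split the libraries in opposite directions. The interferon-gamma receptor *Ifngr1* and the interleukin-4 receptor *Il4ra* were at 152 ± 16.6 TPM and 119.6 ± 13.7 TPM. *Il5ra*, *Il9r*, *Il2rb*, *Il27ra*, *Lepr* and *Prlr* were among those under 1 CPM. The G-CSF receptor *Csf3r* was at 40.4 ± 14.8 TPM.

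Of 31 receptor tyrosine kinases, 15 were expressed, and 4 of them exceeded 25 TPM. The expressed share, 48.4%, was near the 50.1% of all protein-coding genes. The M-CSF receptor *Csf1r* was at 64.5, 97.7, 77.5 and 91.4 CPM, and its exons overlap those of *Hmgxb3* on the opposite strand. The insulin-like growth factor receptor *Igf1r* was at 114, 89.6, 169 and 172 CPM and the hepatocyte growth factor receptor *Met* at 41.9, 35.1, 74.4 and 81.5 CPM. For *Kit*, *Igf1r* and *Met* alike, libraries 3 and 4 were the highest. *Egfr* was at 0.0192 CPM, and *Erbb2*, *Fgfr2*, *Fgfr4*, *Alk* and *Tek* had no read. In the group of interleukin-1, TNF, TGF-beta and Notch family receptors, 21 of 24 were expressed, with the TNF receptor *Tnfrsf1a* (163 ± 4.56 TPM) and the lymphotoxin receptor *Ltbr* (138 ± 11.8 TPM) on top. *Cd40*, *Notch3* and *Notch4* were the 3 under the threshold.

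Of 36 chemokine and other G-protein-coupled receptors, 19 reached 1 CPM (52.8%, near the 50.1% of all protein-coding genes). *Cxcr4*, the receptor that holds progenitors in the marrow, was at 94.9, 109, 126 and 129 CPM and *Ccr2* at 210.3, 287, 208 and 256 CPM. *Ccr1* (96.4 ± 13.1 TPM) and the sphingosine receptor *S1pr4* (31.8 ± 8.72 TPM) followed. Among 30 integrins, selectins and adhesion receptors 21 were expressed, with *Cd47*, the ligand of the phagocyte receptor SIRP-alpha, at 524 ± 38.4 TPM, *Itgb2* at 437 ± 93.8 TPM and *Itgb1* at 391 ± 8.76 TPM. Among 22 pattern-recognition receptors 18 were expressed, and the adaptor STING (*Tmem173*, 169 ± 25.4 TPM) and *Tlr2* (77.8 ± 13.98 TPM) were highest, while *Tlr3*, *Tlr5*, *Tlr11* and *Tlr12* were under 1 CPM. Among 31 nuclear receptors 20 were expressed. The liver X receptor *Nr1h2* (73.8 ± 9.15 TPM) and *Rxrb* (64.2 ± 5.57 TPM) overlapped in their spread, and the glucocorticoid receptor *Nr3c1* (59.6 ± 1.65 TPM) came next. The progesterone receptor *Pgr* had no read.

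Of 28 cytokines and growth factors, 16 reached 1 CPM (57.1%, against 50.1% of all protein-coding genes). The chemokines *Ccl9* and *Ccl6* were the highest at 495 ± 89.7 TPM and 328 ± 117 TPM, followed by *Tgfb1* at 205 ± 16.1 TPM and *Ccl3* at 164 ± 25.9 TPM. *Csf1*, the ligand of *Csf1r*, was at 40.4, 22.2, 44.7 and 40.7 CPM, and *Vegfa* at 58.3, 47.1, 55.01 and 46.1 CPM. By contrast, *Il3* had no read, and *Csf2* (GM-CSF) and *Csf3* (G-CSF) were at 0.0575 and 0.03796 CPM, although their receptors were expressed. *Kitl*, the ligand of *Kit*, was at 3.47, 3.22, 1.701 and 2.13 CPM. *Thpo*, *Epo* and *Ifng* had no read.

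Transcription factors were taken in 24 families, of which 125 of 156 members reached 1 CPM. In several families a single member carried the signal. *Spi1* was at 308 ± 29.6 TPM, against 0.453 and 0.0366 TPM for *Spib* and *Spic*, and *Trp53* at 139 ± 3.88 TPM, against no read for *Trp63* and *Trp73*. In the GATA family *Gata2* (78.7 ± 38.2 TPM) stood above *Gata1* (12.4 ± 5.37 TPM) in every library, and *Gata3*, *Gata4*, *Gata5* and *Gata6* were under 1 CPM. Of the Ikaros family, *Ikzf1* was at 234 ± 29.3 TPM and *Ikzf3* at 0.218 CPM. *Ikzf2* was at 57.4, 6.29, 56.5 and 58.03 CPM, with library 2 far below the rest. In the C/EBP family all 6 members were expressed, and *Cebpb* (329.9 ± 88.5 TPM) and *Cebpa* (155 ± 45.7 TPM) led. *Cebpa*, required for granulocyte commitment, was at 112, 68.1, 138 and 138 CPM, lowest in library 2, and *Cebpe*, of the later granulocyte stages, at 22.95, 15.9, 13.4 and 10.6 CPM.

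The 4 genes of the RUNX list, which are *Runx1*, *Runx2*, *Runx3* and their common partner *Cbfb*, were all expressed. *Cbfb* was highest at 253 ± 15.01 TPM, while *Runx2* (45.6 ± 5.58 TPM) and *Runx3* (38.01 ± 1.83 TPM) were both above *Runx1* (19.4 ± 4.85 TPM). *Runx1* was at 58.02, 45.9, 75.3 and 80.9 CPM and *Runx2* at 129.9, 116, 98.1 and 106 CPM. All 12 other ETS factors were expressed, led by *Elf1* (177 ± 19.1 TPM), *Etv6* (135 ± 10.7 TPM) and *Elf4* (116 ± 10.7 TPM). *Erg* was at 53.1, 30.5, 51.8 and 51.1 CPM, with library 2 lowest. Among the SCL and LMO genes *Lmo2* and *Lyl1* were at 469.7 ± 41.03 TPM and 310.3 ± 18.6 TPM, far above *Tal1* (21.1 ± 13.4 TPM). Of the STAT factors, *Stat6* (134 ± 4.25 TPM) and *Stat3* (96.7 ± 7.88 TPM) were highest and all 7 were expressed. Of the MEIS and PBX group, *Pknox1* (47.5 ± 3.47 TPM) and *Pbx2* (38.9 ± 1.28 TPM) lay near *Meis1* (35.1 ± 3.52 TPM), and *Meis2* and *Meis3* were under 1 CPM.

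In the remaining families, all 10 KLF factors were expressed with *Klf13* (73.4 ± 5.45 TPM) first, and all 8 E2F factors with *E2f4* (178 ± 7.86 TPM) first. Both GFI1 genes, all 3 MYB genes and all 5 NF-kB genes were expressed as well, with *Gfi1* at 78.4 ± 16.8 TPM, *Mybl2* at 87.7 ± 4.46 TPM and *Rela* at 94.8 ± 10.4 TPM. Of 10 genes of the MYC network, *Mycl* alone was under 1 CPM, with no read. *Id1* was at 205 ± 27.95 TPM, while *Id3* and *Id4* stayed under the threshold, at 0.117 and 0.03796 CPM. Of 9 SOX factors, *Sox4* (42.6 ± 14.97 TPM) was the main one, with *Sox6* and *Sox12* at a mean of 1.41 and 1.095 CPM and the other 6 under 1 CPM. In AP-1, *Jund* (165 ± 14.6 TPM) was highest and *Fosb* was at 0.379 CPM. *Irf3*, *Irf1* and *Irf8* were at 51.7 ± 5.07 TPM, 40.4 ± 2.92 TPM and 31.95 ± 5.63 TPM, and 8 of 9 IRF genes were expressed. *Lef1* and *Tcf7l1* of the TCF and LEF family were at 0.0177 and 0.278 CPM, *Egr4* had no read, and *Mef2b* and *Tal2* were at 0.265 and 0.03796 CPM.

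Isozyme choice was described in 44 families with 154 members, of which 34 stayed under 1 CPM. The leading member held a median of 75.6% of its family's TPM, it was the same gene in all 4 libraries in 40 families, and it held 90% or more in 14. In the listed glycolytic families from aldolase onward, a single gene held nearly all of the TPM. Lactate dehydrogenase was 99.9% ± 0.0705 *Ldha*, with *Ldhb* at 0.438 CPM, and pyruvate kinase was 99.97% ± 0.0117 *Pkm*. Enolase was 99.5% ± 0.0834 *Eno1* and aldolase 98.4% ± 0.437 *Aldoa*. *Pgam2* had no read. The first steps drew on more enzymes. Hexokinase was 66.7% ± 2.97 *Hk3*, a myeloid form, 16.8% ± 2.24 *Hk2* and 16.5% ± 1.001 *Hk1*. *Hk2* and *Hk1* did not differ beyond their spread. Phosphofructokinase was 52.998% ± 1.57 *Pfkl*, 32.3% ± 1.54 *Pfkp* and 14.7% ± 0.767 *Pfkm*.

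Of the glucose transporters *Slc2a1* held 67.1% ± 1.96 and *Slc2a6* 21.5% ± 2.48, while *Slc2a2* had no read. Of the monocarboxylate transporters *Slc16a1* held 70.2% ± 11.2 and *Slc16a3* 29.6% ± 11.2. The share of *Slc16a1* was lowest in library 1, at 54.8%. The pyruvate dehydrogenase kinases were 57.9% ± 0.475 *Pdk3* and 41.6% ± 0.488 *Pdk1*, with *Pdk4* at no read. *Idh2* and *Idh1* held 38.5% ± 3.09 and 37.8% ± 0.789 and led in 2 libraries each, so that neither stood above the other beyond the spread. Superoxide dismutase was 80.9% ± 1.44 *Sod1* and ferritin 81.6% ± 1.35 light chain (*Ftl1*). Cytochrome c oxidase used the ubiquitous subunits, with 99.9% ± 0.103 *Cox4i1* and 99.7% ± 0.206 *Cox6a1*, while the muscle form *Cox6a2* was at 0.423 CPM. Adenine nucleotide translocase was 83.6% ± 1.21 *Slc25a5*. Per length no carbonic anhydrase dominated, since *Car9*, *Car12*, *Car1* and *Car2* each held between 19.0% and 24.4% on average. By CPM, *Car12* held 52.6% of the family.

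The HIF prolyl hydroxylases, the enzyme family that the other treatment of the series targets, are the oxygen sensors that mark HIF-alpha for degradation. *Egln3* (PHD3) held 56.8% ± 9.28 of their TPM, *Egln2* (PHD1) 23.2% ± 6.48 and *Egln1* (PHD2) 19.98% ± 3.18. *Egln3* was at 168, 75.6, 164 and 171 CPM, lowest in library 2, where its share was 43.1%, but it led in all 4 libraries. *Egln1* was at 81.8, 56.5, 62.3 and 63.7 CPM and *Egln2* at 59.9, 60.7, 55.3 and 57.4 CPM. Of the HIF alpha subunits *Hif1a* was at 376, 275, 403 and 424 CPM and *Epas1* (HIF-2 alpha) at 3.4004, 2.38, 1.296 and 1.22 CPM, and per length *Hif1a* was at 225 ± 41.2 TPM against 1.33 ± 0.663 TPM. *Hif3a* and *Arnt2* were under 1 CPM, while *Arnt*, the common beta subunit, was at 32.9 ± 1.98 TPM. *Bnip3*, a mitophagy receptor and known HIF target, was at 135, 61.3, 109.7 and 110.04 CPM under vehicle, lowest in library 2. The histone demethylase *Kdm5b* was at 55.8, 28.8, 47.7 and 42.3 CPM, the chaperone *Hspa8* at 1460.3 ± 105 CPM, the nucleoporin *Nup98* at 205 ± 3.496 CPM, the nuclear import receptor *Kpnb1* at 889 ± 42.3 CPM and the RNA-binding protein *Rbm15* at 88.7 ± 6.18 CPM.

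Among cell cycle genes, *Ccnd2* and *Ccnd3* held 50.6% ± 9.86 and 48.5% ± 9.66 of D cyclin TPM and led in 2 libraries each, while *Ccnd1* held 0.973% ± 0.215. *Ccna1* had no read. *Cdk4* held 67.5% ± 1.33 against 32.5% ± 1.33 for *Cdk6*. Of the BCL-2 survival genes, *Mcl1* held 82.5% ± 1.404 and *Bcl2* 2.58% ± 1.24. *Bcl2* was at 28.5, 13.5, 40.4 and 42.7 CPM, lowest in library 2, and *Mcl1* at 390.2, 438, 346 and 368 CPM. The near-identical *Bcl2a1* copies cannot be told apart with certainty, and only *Bcl2a1a* passed 1 CPM (3.83, 5.52, 1.78 and 1.14 CPM). Among chromatin enzymes *Dnmt1* held 86.7% ± 0.686 of DNA methyltransferase TPM, *Ezh2* held 84.9% ± 1.16 of its pair, and *Tet3* and *Tet2* held 51.4% ± 1.03 and 47.2% ± 0.856, with *Tet1* at 1.37% ± 0.209. *Kmt2e* held 32.3% ± 0.721 and *Kmt2a* 18.5% ± 0.863 of the 5 MLL family genes. *Mllt1* (ENL) held 95.3% ± 0.0697 of the pair with *Mllt3*. *Aff1* held 49.1% ± 5.04 of the AFF family, with *Aff3* at 68.8, 6.83, 32.9 and 32.6 CPM, lowest in library 2. The linker histone pair was only *H1f0* and *H1fx*, and its share says nothing of the histone genes that were not in the family list.

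In signaling and structural families, *Jak1* held 39.8% ± 0.525 of the Janus kinases, *Pik3cd*, the form of leukocytes, 48.1% ± 1.001 of the PI3K catalytic subunits, *Akt1* 86.3% ± 1.74 and *Nras* 50.1% ± 1.54 of the RAS genes. *Rac2*, the hematopoietic form, held 64.8% ± 3.81 against 34.9% ± 3.73 for *Rac1*. *Ptgs1* held 98.5% ± 0.554 of the cyclooxygenases. *Actb* held 90.8% ± 0.329 of actin, *Tubb5* 65.8% ± 1.42 of beta tubulin and *Lmnb1* 84.6% ± 1.35 of lamin, with *Lmna* at 2.77% ± 0.709. *Eef1a2*, the form of neurons and muscle, had no read.

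**Figure D4:**
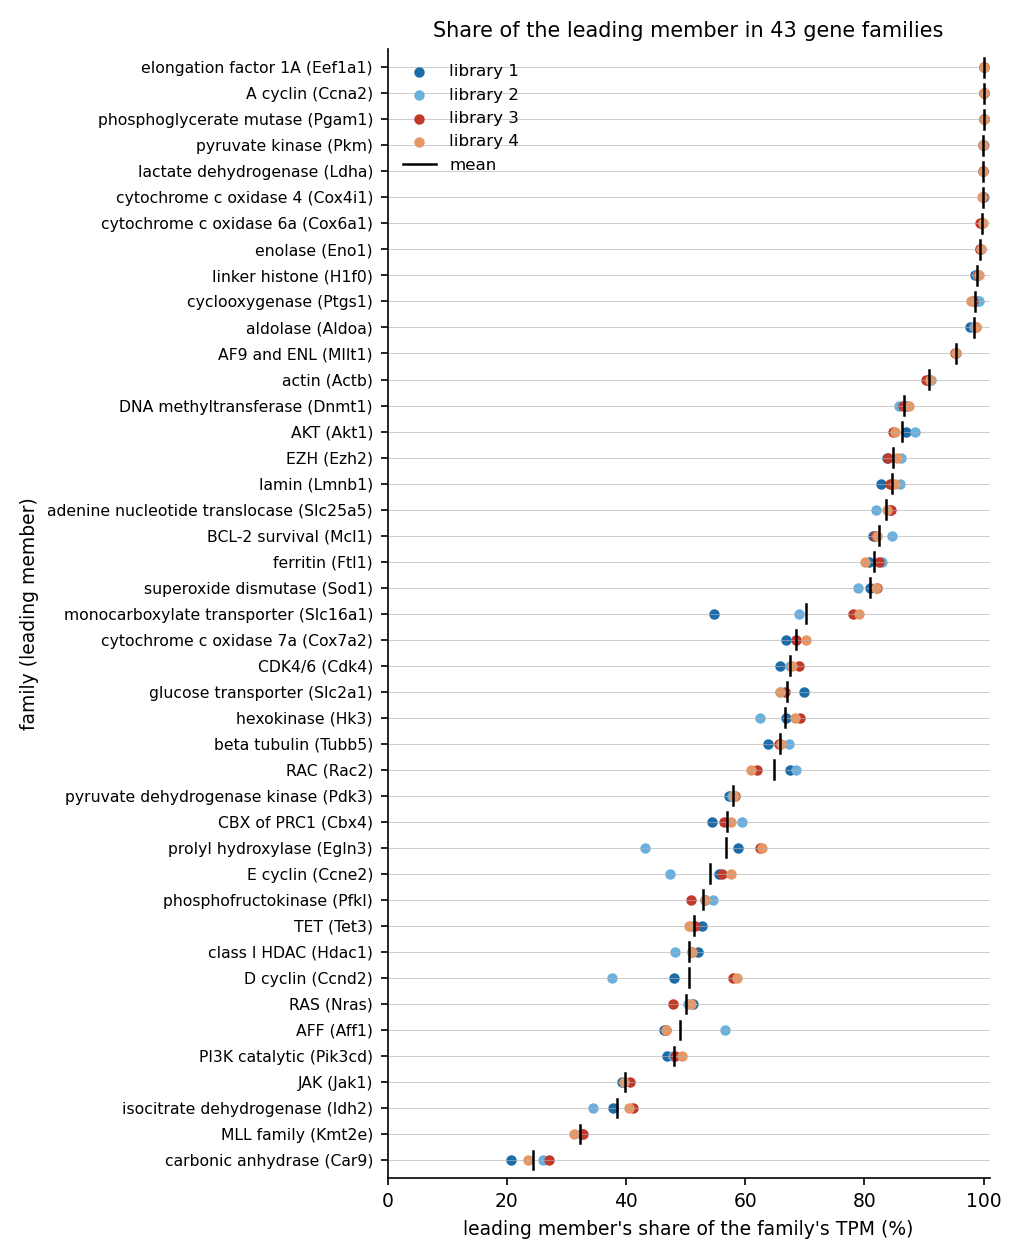
Share of a family's TPM held by its leading member in percent (x axis) for 43 of the 44 families (y axis, leading member in brackets), with 1 point per DMSO library and a bar at the mean. The leader held 90% or more in 13 of the families drawn and under 50% in 6, and the libraries lie far apart for *Slc16a1*, *Egln3* and *Ccnd2*.

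Whole gene families stayed under the threshold. Of 1135 olfactory receptor genes 1, *Olfr56*, reached 1 CPM, at 1.12 ± 0.673 CPM, and 1094 had no read. None of the 324 vomeronasal receptors, 35 bitter taste receptors, 57 keratin-associated proteins, 42 beta-defensins, 22 alpha-defensins or 49 cytochrome P450 genes of family 2 reached the threshold, nor did any of 136 T-cell receptor variable segments. Of 53 keratins, *Krt80*, *Krt7* and *Krt10* did, at 3.89, 2.22 and 1.82 CPM. Of 22 voltage-gated potassium channels, 3 did, with *Kcnq5* at 17.9 ± 4.85 CPM. Housekeeping complexes were at the other end, with 36 of 36 complex I subunits, 13 of 13 RNA polymerase II subunits, 77 of 78 mitochondrial ribosomal proteins, 81 of 84 cytosolic ribosomal proteins and 38 of 39 proteasome subunits expressed. The exceptions included tissue-restricted copies such as *Rpl3l* of muscle and *Psmb11* of the thymus, at 0.207 and 0.0369 CPM, and the mitochondrial ribosomal protein gene *Mrpl53*.

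Among the genes at 10 CPM or more, the spread between libraries was largest for *Xist*, *Eif2s3y*, *Ddx3y* and *Kdm5d*. The next 6 were *Frzb*, *Scin*, *Psma8*, *Igf2r*, *Tox* and *Prss34*. *Frzb*, a secreted WNT antagonist, was at 51.9, 1.76, 0.243 and 0 CPM in libraries 1 to 4, high in library 1 alone. The actin-severing protein *Scin* was at 5.101, 7.21, 131 and 105 CPM and the testis proteasome subunit *Psma8* at 1.28, 0.997, 19.2 and 18.7 CPM, both with libraries 3 and 4 on top. The cation-independent mannose 6-phosphate receptor *Igf2r* was at 50.01, 71.7, 4.54 and 5.25 CPM and the nuclear factor *Tox* at 22.8, 16.96, 1.296 and 1.83 CPM, both with libraries 1 and 2 on top. Among the 8836 genes at 10 CPM or more, library 2 stood over 2-fold below the other 3, with those within 2-fold of each other, for 50 genes and above them for 6. Library 1 stood below for 7 genes and above for 8. Libraries 3 and 4 could not stand alone, since no gene differed over 2-fold between them. Over all expressed genes the common biological coefficient of variation, the spread left after counting noise, was 0.184. For single pairs of libraries it ran from 0.163 (libraries 1 and 2) to 0.224 (libraries 2 and 3), except for libraries 3 and 4, at 0.0340. What set these libraries apart was not tested.

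**Figure D5:**
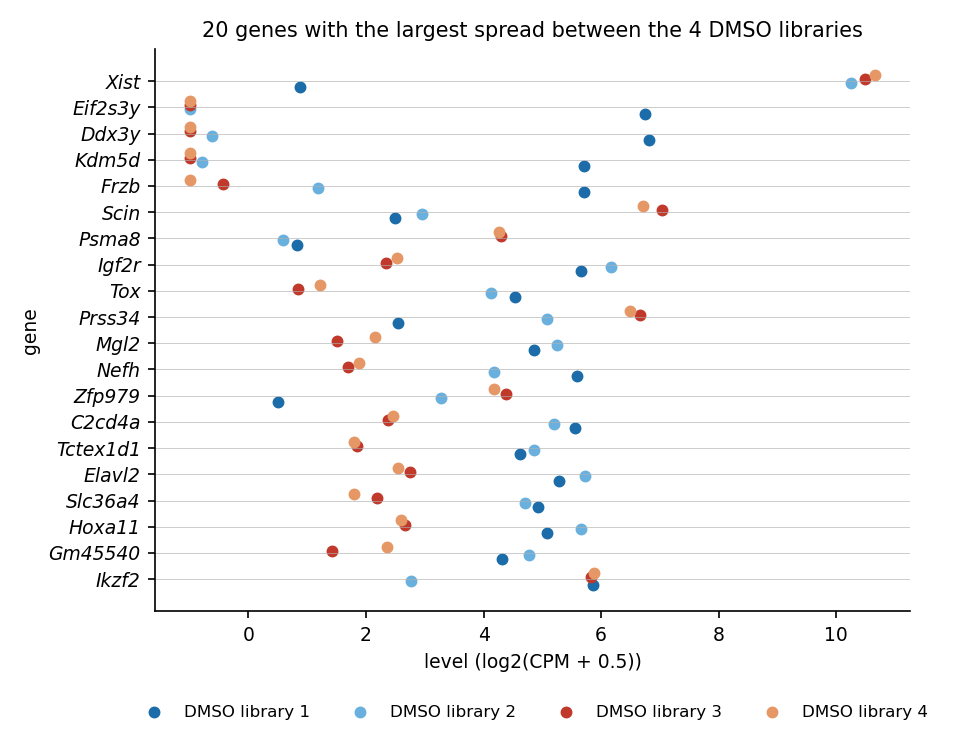
Level in log2(CPM + 0.5) (x axis) of the 20 genes with the largest SD of that level among genes with a mean of 10 CPM or more (y axis), with 1 point per DMSO library. The points of libraries 3 and 4 lie together for nearly every gene, *Xist* and the Y-linked genes set library 1 apart, and *Ikzf2* sets library 2 apart.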

How the data were processed

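Poly(A)-selected RNA of 4 DMSO-treated libraries was read in single-end runs with a stranded kit. The authors trimmed reads with Cutadapt (version 1.18 in the submitters' processing notes), aligned them to GRCm38 with HISAT2 (2.2.1) and deposited counts of reads per gene from HTSeq (2.0.1). The alignment used a transcript-aware index whose release the methods state, while the annotation and strand setting used for counting were not given in the sources used here. *Xist* had 54951 reads in the 4 libraries against 9 for the overlapping antisense *Tsix*, and 178 of 754 listed genes share exon positions with a gene on the other strand. The summary lines of the count files, such as reads mapped to several places, held 20.6% to 21.5% of reads and were left out. Reads on genes numbered 12343770 to 14116054 per library. Multi-mapping reads were not assigned, so near-identical copies are undercounted.

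CPM was computed on the reads on genes, and TPM with the union of exon lengths of GENCODE M21, which held 54809 of the 54838 gene IDs. Groups came from the treatment label, and no contrast or test was made. The common biological coefficient of variation was fitted with edgeR 4.0.16 in R 4.3.3 and checked on simulated counts, and size factors of DESeq2 1.42.0 gave an alternative scaling. Named genes were drawn from the 20 highest by CPM and by TPM, the marker genes, the 4 highest of each list or family with members on the rarer side of 1 CPM, all isozymes, the 10 genes with the largest spread, the 5 highest non-coding genes, sex-linked genes and genes that the study itself discusses. Further list members, the *Hox* genes, whole families and neighboring genes were named after their values had been seen. The members and lists were chosen with earlier results of these data known. Promoter stretches came from the RefSeq table of GRCm38.p6. A check of promoter words by expression class was void, because 75.2% of protein-coding genes had a window, under the 80% required. Some members of the lists are not reported here.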

Additional observations from a re-analysis of the deposited data

Results flagged for a closer look

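Each of 231 genes given with a value above was examined for a library whose gap to the nearest of the other 3, divided by the whole range, passed Dixon's critical value for 4 samples at the 95% level. Chance passes it in about 1 in 20 groups of independent samples. That rate cannot be applied to the 24 genes that passed, because libraries 3 and 4 were nearly alike, which makes it harder for either to pass, and some genes were named for their large spread. The values below are in CPM, and what set the libraries apart was not tested.

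Library 1 was the highest for *Ddx3y* (112, others 0 to 0.153 CPM), *Eif2s3y* (107, others 0 to 0 CPM), *Frzb* (51.9, others 0 to 1.76 CPM), *Kdm5d* (51.5, others 0 to 0.0767 CPM) and *Uty* (35.9, others 0 to 0 CPM). Library 1 was the lowest for *Hoxb5* (0.142, others 1.23 to 1.37 CPM), *Mllt1* (47.2, others 51.5 to 51.9 CPM) and *Pbx2* (37.5, others 40.1 to 40.4 CPM). In library 2 the level was the highest for *Ftl1* (1730.0, others 1365 to 1408 CPM), *Gm23935* (129.97, others 52.5 to 62.9 CPM), *Hsp90ab1* (4297, others 3876 to 3931 CPM), *Ptgs1* (184, others 120.3 to 129.7 CPM), *Stat3* (291, others 242 to 249.9 CPM), *Stat6* (175, others 161 to 163 CPM), *Tlr2* (84.02, others 58.3 to 60.9 CPM) and *Trp53* (166, others 154 to 155 CPM). In library 2 the level was the lowest for *Egln3* (75.6, others 164 to 171 CPM), *Erg* (30.5, others 51.1 to 53.1 CPM), *Gzmb* (5.37, others 44.3 to 48.4 CPM), *Ikzf2* (6.29, others 56.5 to 58.03 CPM), *Pfkp* (235, others 321 to 333 CPM) and *S1pr4* (12.7, others 23.1 to 24.9 CPM). Library 4 was the highest for *Tet3* (155, others 141 to 142 CPM). Library 4 was the lowest for *Ccnd1* (1.83, others 2.35 to 2.46 CPM). *Xist*, for which library 1 was far below the others, did not pass, because libraries 2 to 4 themselves ranged from 1219.7 to 1623 CPM.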

How the results depend on the processing

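The count of 11988 expressed genes was 11983 to 11987 with TMM scaling, DESeq2 size factors (11984) or mitochondrial genes out of the total, 13111 at 0.5 CPM, 10987 at 2 CPM, 11171 when every library had to reach 1 CPM, 13618 at 1 TPM and 11980 with libraries 3 and 4 counted as 1, a setting chosen after seeing the data. Leaving out 1 library gave 11906 to 11998 genes and moved 129 to 196 genes across the threshold. The number of expressed lineage genes was 97 of 201, and 96 to 98 with 1 library left out. The 20 most abundant genes held 5.40% to 5.53% with 1 library left out, 5.15% without mitochondrial genes and 10.1% as a share of TPM, since TPM weights short genes. Mitochondrial genes held 1.31% to 1.34% with 1 library left out.

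The median share of the leading isozyme was 75.6%, 67.9% by CPM, 72.2% with the longest transcript as length and 74.3% to 78.2% with 1 library left out. By CPM the leader changed in 6 families, where *Pfkl* held 42.4%, *Pdk3* 31.3%, *Idh2* 30.7%, *Cdk4* 32.6%, *Kmt2e* 23.8% and *Car9* 17.1%. With the longest transcript *Ccnd2* held 40.6%, *Tet3* 47.2% and *Car9* 19.5% and no longer led. *Idh2* held 37.5% and *Ccnd2* 48.1% without library 3, 37.8% and 47.9% without library 4, and 37.7% and 48.0% with libraries 3 and 4 counted as 1, and neither led then. With 1 library left out their ranges were 37.5% to 39.8% and 47.9% to 54.9%. *Car9* ranged from 23.5% to 25.6%, and at 25.6%, without library 1, another member led.

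The common biological coefficient of variation was 0.162 to 0.199 with 1 library left out, lowest without library 2, 0.185 on raw totals, 0.188 over all genes with a read and 0.207 with libraries 3 and 4 counted as 1. No paired analysis was possible because a single group was described. At this depth a gene with no read in the 4 libraries could still be present at up to 0.0570 CPM.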

Other observations

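Some genes outside the lists stood at levels worth a value, and all were chosen after their values had been seen. *Cyp11a1*, the mitochondrial enzyme that starts steroid synthesis and is best known from adrenal and gonad, was at 193, 35.6, 236 and 217 CPM in libraries 1 to 4. Every library was thus far above 1 CPM. *Plppr3*, a membrane protein of the lipid phosphatase-related family known from neurons, overlaps exons of *Prtn3* on the opposite strand of chromosome 10 and was at 161, 157, 210.3 and 214 CPM. It had 9725 reads in the 4 libraries, against 59693 for *Prtn3*. The potassium channel gene *Kcnq5* was at 18.9, 10.8, 20.3 and 21.6 CPM and the protocadherin *Pcdhgc3*, whose exons are in part shared with other genes of its cluster, at 16.5, 24.9, 8.67 and 6.24 CPM. The polyadenylated fraction also held the linker histone *Hist1h1c* at 24.02, 25.8, 20.3 and 21.7 CPM, while *Hist1h1e* was at 0.706 CPM. Most histone transcripts lack a poly(A) tail, and these libraries do not measure them.

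Both adjacent genes *Gm42418* and *Gm26917* on chromosome 17 had their highest level in library 2. They stood at 455, 762, 331 and 443 CPM and 365, 695, 286 and 366 CPM, with library 3 lowest for both. *Gm23935* was also highest in library 2 and lowest in library 3. Which RNA the reads on these genes came from was not tested.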
